A study of Mus musculus with 4 samples.

Results

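Cytokines, chemokines and the NF-kB pathway were described across 4 hypothalamic arrays as a set of 35 genes, out of 19938 genes measured with probe sets that carry exactly 1 gene symbol. The set holds the inflammatory cytokines of the IL-1 family, IL-6 and TNF with their receptors, 10 chemokines, NF-kB subunits and their inhibitors, sensors of microbial products, the enzymes of prostaglandin E2 synthesis and a pair of endothelial adhesion molecules. All 35 were measured, each by 1 probe set. The genes were listed by name, with earlier results of these data known.

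The tissue was the hypothalamus of male CDF1 mice (BALB/c by DBA/2) aged 10 to 11 weeks, killed on day 20. Control mice had received 0.2 ml of Hanks' balanced salt solution under the skin of the flank, and tumour-bearing mice had received the same volume with 500000, 1000000 or 2000000 C26 cells (0.5M, 1M and 2M below). C26 is a mouse colon adenocarcinoma line whose growth is accompanied by weight loss. The arrays held pooled RNA of 4 control mice, 4 mice of 0.5M and 3 mice of 1M, and RNA given as that of 1 mouse of 2M, so each group was 1 array and no group had a replicate. The labels of the 2M array conflict, since its source names 1 animal while its title calls it pooled. Values are log2 intensities after RMA, and every difference below is a tumour-bearing array minus the control array. Each probe set has its own scale, so levels are compared between arrays and not between genes.

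Cytokines such as interleukin-1, interleukin-6 and TNF are released by immune cells and act on brain endothelium, microglia and neurons. Their receptors, like the Toll-like receptors, free NF-kB dimers from inhibitor proteins of the IkB family, and the dimers then switch on further cytokines, chemokines, adhesion molecules, the prostaglandin enzyme Ptgs2 and their own inhibitors. In the hypothalamus this route is known for fever and for the loss of appetite during infection and systemic inflammation.

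As a set these genes lay close to the control array at every cell number. Their median difference, in log2, was -0.03 (0.5M), 0.08 (1M) and 0.05 (2M), beside -0.01, 0.07 and 0.03 for all 19938 genes. At 0.5M, 0 genes of the set stood at least 0.5 log2 (1.41-fold) above control, where 0.692% of all genes did, and 1 gene, Cxcl10, stood at least that far below, where 0.697% did. At 1M the set held 0 genes past that size in either direction, although 3.21% of all genes were higher and 1.59% lower by that much. At 2M it held 0 higher genes, against 1.78% of all genes, and 1 lower gene, Il1a, against 1.23%. The median absolute difference in the set was 0.10 (0.5M), 0.16 (1M) and 0.16 log2 (2M), beside 0.11, 0.16 and 0.13 over all genes. With 1 array per group, these sizes have no replicate check.

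**Figure D1:**
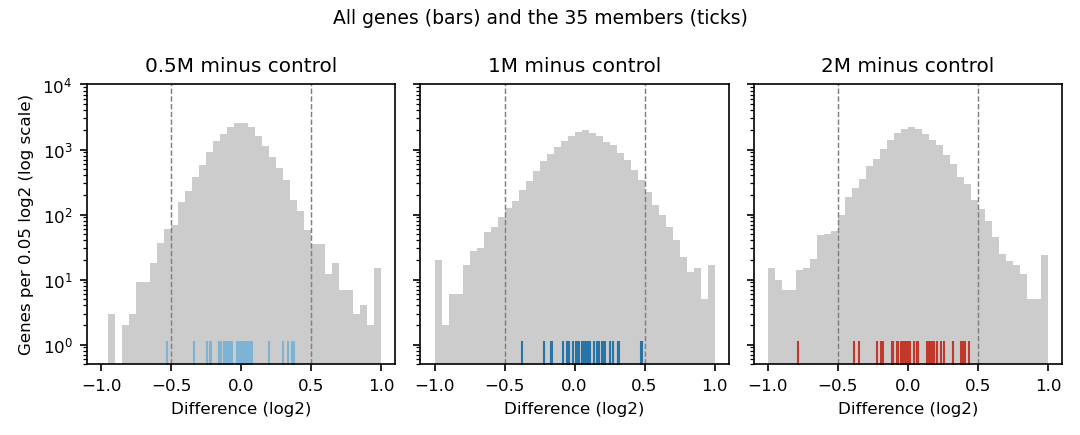
Histograms of the difference from control (x axis, log2) over all 19938 genes at 0.5M, 1M and 2M, with the number of genes per bin of 0.05 log2 on a log-scaled y axis and the 35 genes of the set as coloured ticks at the base. The outermost bars also hold genes beyond 1 log2, and dashed lines mark 0.5 log2. Of the ticks, 1 lies past a dashed line at 0.5M, 0 at 1M and 1 at 2M.

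In the limma comparison of the 3 tumour-bearing arrays with the control array, 0 genes of the set passed an adjusted p of 0.05. The 16 members whose mean over the arrays reached 6.59 log2, the 40th percentile of all genes, entered the test, and their lowest adjusted p in limma was 0.442, that of Tnfrsf1b, while 0.0502% of the 11963 genes tested passed. At an unadjusted p under 0.05, limma gave 1 member, Tnfrsf1b, and 10.8% of the genes tested. The other 19 members lie below that filter value, so the fit was also made over all 19938 genes. There limma again passed 0 members, with a lowest adjusted p of 0.634, and 0.00502% of all genes. At an unadjusted p under 0.05 that fit gave 3 members, Nfkbie and Cxcl2 upward and Il1rn downward, and 7.52% of all genes. Both fits have 2 residual degrees of freedom, take the spread from arrays that differ in cell number and pool size, and assume that the lone control array varies like them. Standard errors of the 16 tested members were 0.09 to 0.18 log2, which sets how small a difference these arrays can resolve.

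The side of control on which the genes lay was close to that of the whole table. In all 3 tumour-bearing arrays, 11 of the 35 members (31.4%) exceeded the control array, as did 33.2% of all genes, and the 3 differences share that array. Another 5 of the 35 were lower in all 3, as were 22.5% of all genes, and 19 lay on both sides. The 11 were Il1b, Tnfrsf1b, Ccl3, Ccl7, Cxcl2, Cx3cl1, Nfkb2, Nfkbie, Tnfaip3, Tlr4 and Cd14, and the 5 were Il1rn, Cxcl12, Rel, Icam1 and Vcam1. With cyclic loess scaling Ccl3 and Ccl7 left the first group, and Il1a, Cxcl10 and Relb joined the second. With each array centred on its median, Ccl7 left the first and Cxcl10 joined the second. The share of members whose highest value was in the 1M array was 57.1%, and 42.6% of all genes peaked there. Genes below the filter value were a median of 0.14 log2 above control at 1M over the whole table, beside 0.17 log2 for the 19 members among them.

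**Figure D2:**
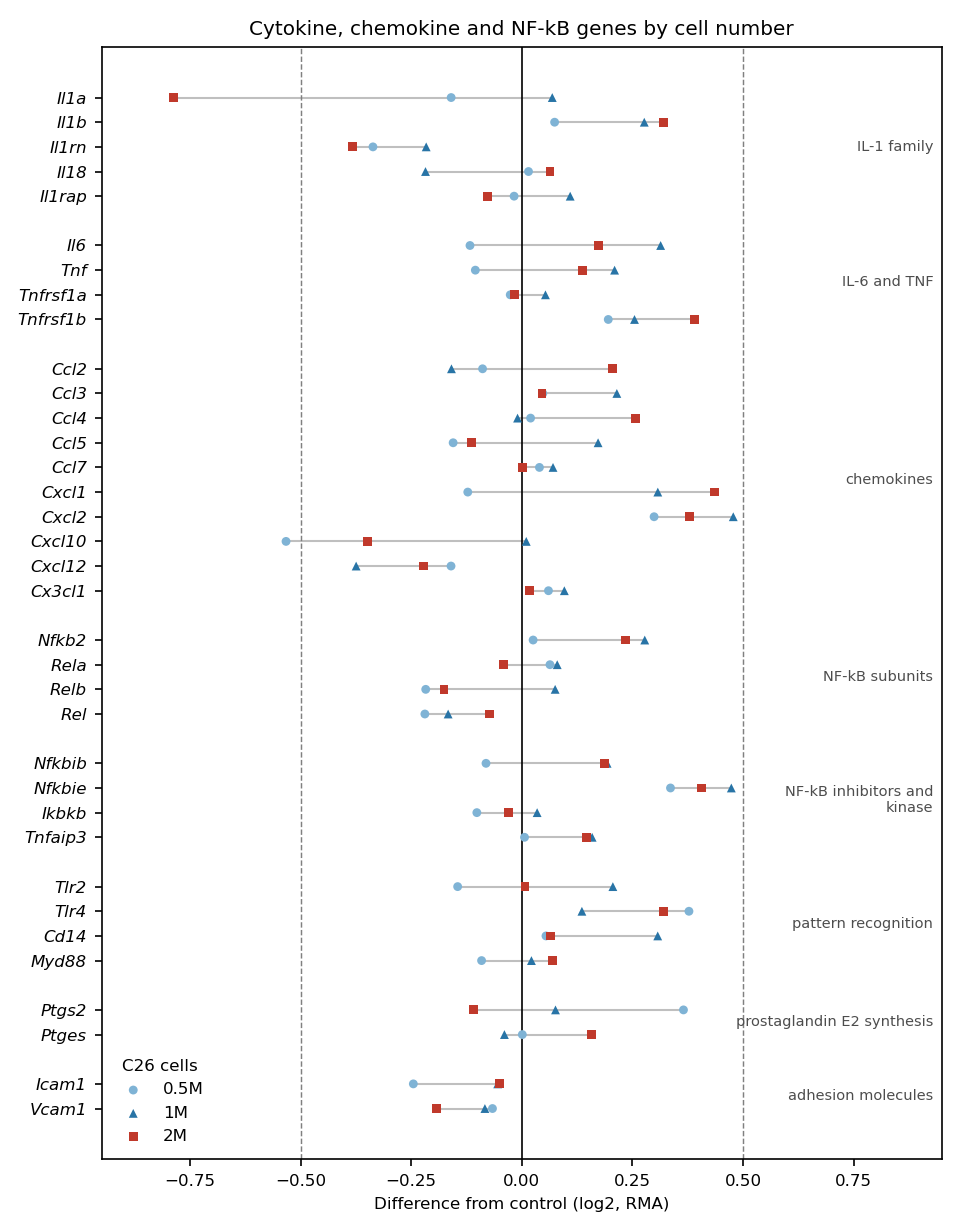
Difference from the control array (x axis, log2, RMA) of the 35 genes, grouped by role, with 1 point per tumour-bearing array (circle 0.5M, triangle 1M, square 2M) and a grey line over their range. The solid line is the control and dashed lines mark 0.5 log2, which Cxcl10 at 0.5M and Il1a at 2M pass, both downward.

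Several of these genes are textbook targets of NF-kB, so their promoters were searched for the NF-kB consensus motif (the kappaB site). RefSeq promoter windows of the GRCm38.p6 assembly, 250 bases before to 50 after a gene's start, were found for 26 of the 35 genes. On either strand, 9 of the 26 (34.6%) held a match, and 5.14% of the 27025 genes with a window did. The 9 were Il6, Cxcl1, Cxcl2, Cxcl10, Nfkb2, Rel, Nfkbie, Tnfaip3 and Tlr2. The 6 of them furthest from control on average are shown, 5′ to 3′ on the gene's strand, with the matched bases in capitals. Matches to both strands that overlap are shown as 1 run. For Cxcl10 and Nfkb2, which hold several stretches with a match, 1 is shown.
Nfkbie, chr17:45555569-45555628, plus strand: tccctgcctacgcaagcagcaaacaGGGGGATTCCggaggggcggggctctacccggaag
Cxcl2, chr5:90903777-90903837, plus strand: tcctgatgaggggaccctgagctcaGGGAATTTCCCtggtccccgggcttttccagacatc
Cxcl10, chr5:92348958-92349017, minus strand: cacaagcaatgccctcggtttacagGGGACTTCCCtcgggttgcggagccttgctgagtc
Cxcl1, chr5:90891149-90891209, plus strand: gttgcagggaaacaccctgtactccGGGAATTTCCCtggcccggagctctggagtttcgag
Nfkb2, chr19:46304673-46304736, plus strand: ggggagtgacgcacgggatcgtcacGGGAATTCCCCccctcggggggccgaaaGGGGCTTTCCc
Rel, chr11:23771026-23771086, minus strand: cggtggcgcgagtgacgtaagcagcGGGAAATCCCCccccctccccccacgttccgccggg

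Counted from the gene's start, the capitals begin at base -106 in Nfkbie, -97 in Cxcl2, -103 in Cxcl10, -71 in Cxcl1, -39 in Nfkb2 and -92 in Rel. The 9 genes with a match had median differences of -0.12 (0.5M), 0.28 (1M) and 0.17 log2 (2M), against -0.02, 0.08 and 0.02 in the 17 genes with a window and no match. Of the 9 genes, 7 lie below the filter value, and of the 17, 5 do. Over the whole table, genes below it stood a median of 0.14 log2 above control at 1M and genes past it 0.04. Among the genes below it, the medians were -0.12 (0.5M), 0.31 (1M) and 0.17 log2 (2M) in the 7 with a match and -0.10, 0.21 and 0.05 in the 5 without. Among those past it, they were -0.10, 0.06 and 0.08 log2 in the 2 with a match and -0.01, 0.06 and 0.00 in the 12 without. The mean differences of the 9 ran from -0.29 log2 in Cxcl10 to 0.41 in Nfkbie, with 4 higher and 1 lower than control in all 3 tumour-bearing arrays. Cxcl1 and Cxcl2 carry the same run of capitals. They differed from control by -0.12 and 0.30 log2 at 0.5M, 0.31 and 0.48 at 1M, and 0.44 and 0.38 at 2M. A match describes the letters in this window and is not evidence of binding. A missing match covers this window and this consensus only, and is not evidence that a gene lacks a kappaB site.

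Within the IL-1 family, Il1a had the widest range over the tumour-bearing arrays, 0.86 log2, while the other 4 genes ranged over 0.17 to 0.28. Il1b, the main secreted form of interleukin-1, had 5.43 log2 in the control array and 5.51, 5.71 and 5.76 at 0.5M, 1M and 2M. These values rank in the order of the injected cell number, and the highest lies 0.32 log2 above control. Across the set, 2 genes (5.71%) ascended in that order and 1 (2.86%) descended, beside 6.07% and 3.7% of all genes. The mean difference of Il1b was 0.22 ± 0.13 log2 (SD, n = 3 tumour-bearing arrays), and its adjusted p in limma over all genes was 0.716. Il1a, which encodes the cell-associated form of the cytokine, had 4.85 log2 in the control array and 4.69, 4.92 and 4.06 at 0.5M, 1M and 2M. The 2M array thus stood 0.79 log2 below control, and the 1M array just above it. A difference at least that low at 2M was found in 0.211% of all genes. The mean difference of Il1a was -0.29 ± 0.44 log2, with a 95% interval in limma from -1.04 to 0.45.

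Il1rn, the secreted receptor antagonist that blocks interleukin-1, had 5.84 log2 in the control array and 5.50, 5.62 and 5.46 at 0.5M, 1M and 2M. The control value lies above all tumour-bearing values. The mean difference was -0.31 ± 0.09 log2 (95% interval by limma -0.60 to -0.03), with an adjusted p of 0.646 in limma over all genes. Il18, a cytokine matured by the inflammasome, differed by 0.02, -0.22 and 0.06 log2 at 0.5M, 1M and 2M. Il1rap, the accessory chain that the interleukin-1 and interleukin-33 receptors share, differed by -0.02, 0.11 and -0.08 log2. The control values of both genes lay within the range of the tumour-bearing arrays.

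The control values of Il6 and Tnf lay within the range of the tumour-bearing arrays, while that of the TNF receptor gene Tnfrsf1b lay below it. Il6, the cytokine that drives the hepatic acute-phase response, had 2.96 log2 in the control array and 2.85, 3.28 and 3.14 at 0.5M, 1M and 2M. Tnf had 5.75 log2 in the control array and 5.64, 5.96 and 5.89. In both genes the 0.5M pool was below control and the 1M and 2M arrays above it. Both lie below the filter value of 6.59 log2, and the lowest value of any probe set was 2.07 to 2.20 log2 across the arrays. Whether either transcript stood above background was not tested. Their mean differences were 0.12 ± 0.22 and 0.08 ± 0.16 log2, with limma intervals (95%) of -0.31 to 0.55 and -0.28 to 0.44. In bulk RNA, a change in the number of cells of a type and a change in RNA per cell cannot be told apart, here or below.

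Tnfrsf1b, the TNF receptor found mainly on immune and endothelial cells, had 6.48 log2 in the control array and 6.67, 6.73 and 6.87 at 0.5M, 1M and 2M. All tumour-bearing values exceed control and rank in the order of cell number. The mean difference was 0.28 ± 0.10 log2, a 1.21-fold difference, with a 95% interval of 0.02 to 0.54, an unadjusted p of 0.0395 and an adjusted p of 0.442 in limma. Its control value lies below the filter value of 6.59 log2, so it entered the filtered fit through the tumour-bearing arrays, and without a filter its unadjusted p in limma was 0.0608. In the trend with the number of injected cells, Tnfrsf1b was 0.18 ± 0.06 log2 per 1000000 cells (SE), the 1 tested member at an unadjusted p under 0.05, where 6.52% of the 11963 genes were. Its adjusted p in that limma trend was 0.756, and 0% of genes passed after adjustment. Tnfrsf1a, the widely expressed TNF receptor with a death domain, differed by -0.03, 0.05 and -0.02 log2, a mean of 0.00 ± 0.04 with an interval of -0.22 to 0.23.

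Microglial markers had a median difference of -0.09 (0.5M), 0.00 (1M) and -0.26 log2 (2M) over the 13 of 14 listed genes that were measured, with 2 higher and 6 lower in all 3 arrays. Their mean level was 7.09 log2 in the control array and 6.99, 7.13 and 6.85 in the tumour-bearing arrays. Cx3cr1, the receptor for fractalkine that marks these cells, had 8.59 log2 in the control array and 8.34, 8.48 and 7.95 at 0.5M, 1M and 2M. Its lowest value was in the 2M array, where 19.7% of all genes had theirs. Markers of neutrophils and blood stood higher, at medians of 0.13, 0.16 and 0.27 log2 over 10 of 12 listed genes, with 7 higher and 0 lower in all 3 arrays. Their part in the values of the cytokine genes was not tested.

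Chemokines had medians of -0.03, 0.08 and 0.03 log2 over 10 genes, and individual members went either way. Cxcl2, a neutrophil attractant made by macrophages and endothelium, had 4.04 log2 in the control array and 4.34, 4.52 and 4.42 at 0.5M, 1M and 2M. The control value is the lowest of the 4 by 0.30 log2. On average Cxcl2 differed by 0.39 ± 0.09 log2 (1.31-fold, 95% interval 0.10 to 0.67), with an unadjusted p of 0.0169 and an adjusted p of 0.634 in limma over all genes. A mean difference at least this high was found in 2.73% of all genes. Cxcl1, its close paralog and also a neutrophil attractant, had 6.16 log2 in the control array and 6.03, 6.46 and 6.59. The 0.5M pool was below control, and the 2M array was 0.44 log2 above it. In the trend over all genes Cxcl1 was 0.26 ± 0.09 log2 per 1000000 cells (SE, limma unadjusted p 0.0189, adjusted p 0.779). With Tnfrsf1b and Il1a it was among 3 members at an unadjusted p under 0.05 in that limma trend, where 6.12% of all genes were, and Il1a was negative at -0.37 ± 0.12 log2 per 1000000 cells (adjusted p 0.779). The 2M array carries most of the weight in this slope.

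Cxcl10, an interferon-induced attractant of T cells, had 5.71 log2 in the control array and 5.18, 5.72 and 5.36 at 0.5M, 1M and 2M. The 1M pool equalled control within 0.01 log2, and the 0.5M and 2M arrays were below it by 0.53 and 0.35. A value at least this low at 0.5M was found in 0.477% of all genes. The mean difference of -0.29 ± 0.28 log2 had a 95% interval in limma from -0.80 to 0.21. Cxcl12, which in brain guides precursors and lymphocytes through Cxcr4, had 7.47 log2 in the control array and 7.31, 7.09 and 7.25. All tumour-bearing values are lower than control. On average Cxcl12 differed by -0.25 ± 0.11 log2 (95% interval -0.52 to 0.02), with an adjusted p of 0.476 in limma. Meningeal fibroblast markers had medians of -0.20, -0.40 and -0.11 log2 over 8 genes. In all 3 arrays 6 of the 8 were lower, beside 22.5% of all genes. Pericyte and smooth muscle markers had medians of -0.06, -0.15 and -0.09 log2 over 7 genes. The part of these cell types in the Cxcl12 value was not tested.

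Cx3cl1, the neuronal fractalkine that signals to microglia, differed by 0.06, 0.10 and 0.02 log2 at 0.5M, 1M and 2M, from a control value of 10.15 log2. Its 95% interval in limma was -0.16 to 0.28 in the filtered fit. The CC chemokines, which attract monocytes and lymphocytes, gave no common pattern. Ccl2 differed by -0.09, -0.16 and 0.21 log2 and Ccl5 by -0.16, 0.17 and -0.11. Ccl3 was 0.05, 0.21 and 0.05 log2 above control and Ccl4 differed by 0.02, -0.01 and 0.26. Ccl7 differed by 0.04, 0.07 and 0.00 log2. None of these passed limma, and their unadjusted p-values ran from 0.43 in Ccl3 to 0.933 in Ccl2. Lymphocyte markers were a median of -0.11, 0.17 and 0.13 log2 from control over 7 of 8 listed genes. All 7 lie below the filter value, where all genes had medians of -0.03, 0.14 and 0.07 log2. Each of the 7 lay on both sides of control.

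**Figure D3:**
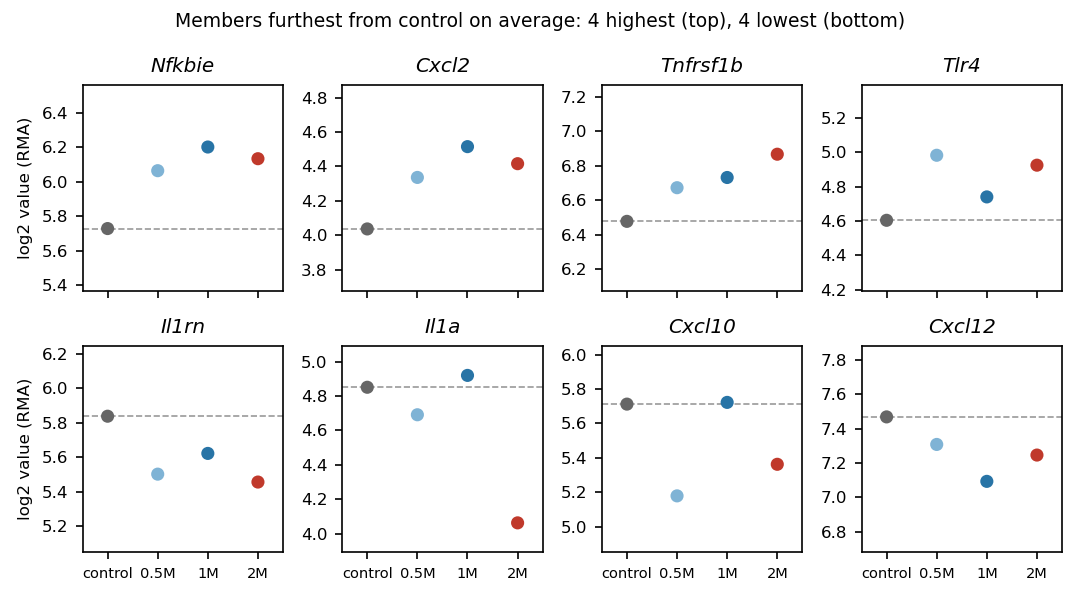
Levels (y axis, log2 after RMA, each panel spanning 1.2 log2) in the control, 0.5M, 1M and 2M arrays of the 4 genes with the highest mean difference from control (top) and the 4 with the lowest (bottom), 1 point per array and a dashed line at the control value. All 3 tumour-bearing points lie above the line in the top panels and below it for Il1rn and Cxcl12, while Il1a and Cxcl10 at 1M touch or pass the control value.

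Among the NF-kB subunits, Nfkb2, the precursor of p52 in the non-canonical branch, had 6.66 log2 in the control array and 6.69, 6.94 and 6.90 at 0.5M, 1M and 2M. Its mean difference was 0.18 ± 0.13 log2 with a 95% interval of -0.12 to 0.48 (limma adjusted p 0.613). Rela, the main activating subunit, differed by 0.06, 0.08 and -0.04 log2. Relb, the partner of p52, differed by -0.22, 0.08 and -0.18 log2. Rel, the subunit prominent in lymphoid cells, was 0.22, 0.17 and 0.07 log2 below control, a mean of -0.15 ± 0.07 (limma adjusted p 0.599). The control level of Rel was thus the highest of its 4 values, and that of Nfkb2 the lowest.

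The IkB proteins hold NF-kB dimers in the cytoplasm, and the kinase encoded by Ikbkb marks them for breakdown. Nfkbie, encoding IkB-epsilon, had 5.73 log2 in the control array and 6.06, 6.20 and 6.13 at 0.5M, 1M and 2M. The tumour-bearing values lie within 0.14 log2 of each other and exceed control by 0.34 to 0.47. The mean difference of 0.41 ± 0.07 log2 (1.32-fold, 95% interval 0.13 to 0.68) was the highest of the set, with an unadjusted p of 0.0109 and an adjusted p of 0.634 in limma over all genes. A mean difference at least as high was found in 2.28% of all genes. With cyclic loess it was 0.35 log2. Nfkbib, encoding IkB-beta, differed by -0.08, 0.19 and 0.19 log2. Tnfaip3, the ubiquitin-editing enzyme A20 that ends NF-kB signalling, differed by 0.01, 0.16 and 0.15 log2. Ikbkb differed by -0.10, 0.03 and -0.03.

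Of the sensors, Tlr4, the receptor for bacterial lipopolysaccharide, had 4.60 log2 in the control array and 4.98, 4.74 and 4.92 at 0.5M, 1M and 2M. All tumour-bearing values exceed control, the 1M pool by the least. The mean difference was 0.28 ± 0.13 log2 with a 95% interval of -0.04 to 0.60 (limma adjusted p over all genes 0.685). Cd14, the co-receptor that hands lipopolysaccharide to Tlr4, was 0.05, 0.31 and 0.07 log2 above control. Tlr2, a receptor for bacterial lipopeptides, differed by -0.14, 0.21 and 0.01 log2, and Myd88, the adaptor of Toll-like and interleukin-1 receptors, by -0.09, 0.02 and 0.07. Tlr2 had a mean over arrays of 6.56 log2, just short of the filter value.

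Ptgs2, which encodes cyclooxygenase-2, had 6.84 log2 in the control array and 7.21, 6.92 and 6.73 at 0.5M, 1M and 2M. The values descend with cell number among the tumour-bearing arrays, with the 0.5M pool above control and the 2M array below it. The mean difference was 0.11 ± 0.24 log2 with a 95% interval of -0.32 to 0.54 (limma adjusted p 0.841). Ptges, the inducible prostaglandin E synthase that acts after cyclooxygenase-2, differed by 0.00, -0.04 and 0.16 log2. Ptgs2 is expressed by neurons as well as by endothelium, and the arrays do not separate the sources.

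The adhesion molecules, which capture leukocytes on activated endothelium, were slightly lower than control in all arrays. Vcam1 had 8.63 log2 in the control array and 8.57, 8.55 and 8.44 at 0.5M, 1M and 2M, a descent in the order of cell number. Its mean difference was -0.11 ± 0.07 log2 with a 95% interval of -0.35 to 0.12 (limma adjusted p 0.686). Icam1 was 0.25, 0.05 and 0.05 log2 below control (mean -0.12 ± 0.11, limma adjusted p 0.73). Endothelial markers were a median of 0.07, 0.05 and 0.02 log2 above control over 11 of 12 listed genes. In all 3 arrays 6 were higher and 3 lower, beside 33.2% and 22.5% of all genes.

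Beyond the 35 genes, 95 further genes of the same pathways were listed, of which 83 were analysed here. Their medians were -0.03 (0.5M), 0.11 (1M) and 0.07 log2 (2M), and 32 (38.6%) were higher and 18 (21.7%) lower than control in all 3 arrays, beside 33.2% and 22.5% of all genes. In limma 0 passed after adjustment, upward or downward, in the filtered or the unfiltered fit. At an unadjusted p under 0.05, the filtered limma fit gave 5 upward and 1 downward among 38 tested, beside 10.8% of all genes tested. Of the 5 upward, 1 had a control value of 6.42 log2, below the filter value of 6.59. It thus entered the filtered fit through the tumour-bearing arrays, and without a filter its unadjusted p in limma was 0.0676. The unfiltered fit gave 3 upward and 2 downward among 83 at that threshold, beside 7.52% of all genes. Nfkbia, encoding IkB-alpha, the inhibitor that NF-kB itself induces, had 8.16 log2 in the control array and 8.47, 8.73 and 8.71 (mean difference 0.48 ± 0.15, limma adjusted p 0.375). Bcl3, a nuclear member of the IkB family, had 6.27 log2 in the control array and 6.64, 6.78 and 6.62 (mean difference 0.41 ± 0.09, limma adjusted p over all genes 0.634). All tumour-bearing values exceed control in both genes and in Nfkbie, as they do in 33.2% of all genes. Nfkbib and some further IkB genes lay on both sides of control. Il6ra, the ligand-binding interleukin-6 receptor chain, had 7.23 log2 in the control array and 7.43, 7.67 and 7.52 (mean difference 0.31 ± 0.12, limma adjusted p 0.433).

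Il18rap, the accessory chain of the interleukin-18 receptor, was the furthest from control of the 83. It had 4.08 log2 in the control array and 4.90, 5.00 and 4.98 at 0.5M, 1M and 2M. The tumour-bearing values lie close together, and all exceed control by over 0.5 log2. These differences share the 1 control array, and Il18rap, with a mean of 4.74 log2 over the arrays, lies below the filter value of 6.59. Its mean difference was 0.88 ± 0.06 log2, a 1.84-fold difference with a 95% interval of 0.62 to 1.15, an unadjusted p of 0.000166 and an adjusted p of 0.308 in limma over all genes. A mean difference this high was found in 0.0803% of all genes. Its ligand gene Il18 stayed within 0.22 log2 of control.

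The lowest of the further genes were Tlr3, Ly96 and Il33. Tlr3, a sensor of double-stranded RNA, had 7.38 log2 in the control array and 7.10, 6.83 and 7.04 (mean difference -0.39 ± 0.14, limma adjusted p 0.383). Ly96, the MD-2 protein that pairs with Tlr4, had 6.44 log2 in the control array and 6.08, 5.93 and 6.14 (mean difference -0.39 ± 0.11, limma adjusted p over all genes 0.634), on the other side of control from Tlr4 in every array. Il33, a nuclear alarmin made by oligodendrocytes and astrocytes, had 8.24 log2 in the control array and 8.02, 8.08 and 7.52 (mean difference -0.37 ± 0.31, limma adjusted p 0.56), with its lowest value in the 2M array.

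**Figure D4:**
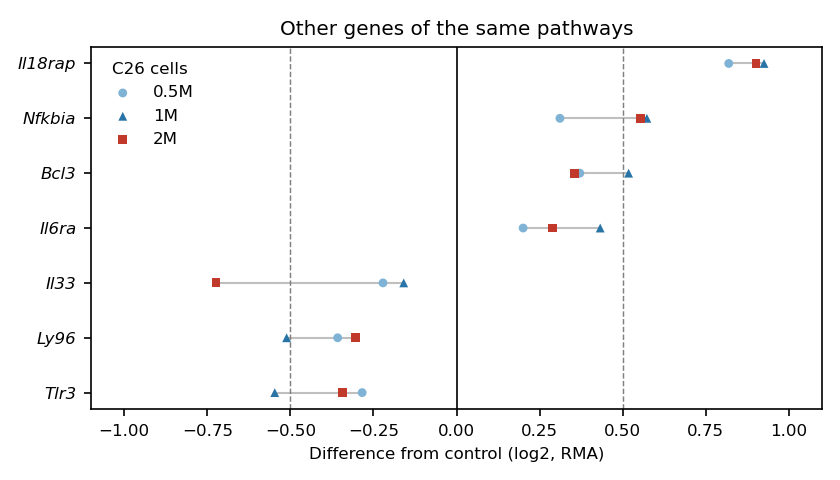
Difference from the control array (x axis, log2, RMA) of the 7 named further pathway genes, with 1 point per tumour-bearing array (circle 0.5M, triangle 1M, square 2M) and a grey line over their range. Il18rap lies past the dashed line at 0.5 log2 in all 3 arrays, and Nfkbia, Bcl3 and Il6ra lie above 0 and Il33, Ly96 and Tlr3 below 0 in all 3.

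Over all probe sets, the arrays correlated at 0.984 to 0.994 and had medians of 6.72 to 6.77 log2. Of 13 listed hypothalamic neuron markers, 12 were measured, such as Hcrt at 11.46 log2 and Pmch at 11.40 log2 in the control array. No markers of other brain regions were set beside them, so the label of the tissue was not tested. The median of the hypothalamic neuron markers stood 0.28 (0.5M), 0.29 (1M) and 0.31 log2 (2M) above control. In all 3 arrays 7 were higher and 1 lower, beside 33.2% and 22.5% of all genes. Choroid plexus markers stayed within 0.01 log2 in median over 8 genes, border macrophage markers within 0.04 over 8, and astrocyte markers within 0.07 over 8. Opposite signs cancel in these medians. Median absolute differences were 0.09 (0.5M), 0.20 (1M) and 0.08 log2 (2M) for choroid plexus, and 0.09, 0.14 and 0.09 for border macrophages. For astrocytes they were 0.08, 0.10 and 0.11 log2, beside 0.11, 0.16 and 0.13 over all genes. Pericyte and smooth muscle markers were a median of -0.06, -0.15 and -0.09 log2 over 7 genes. The part of tissue composition in the values of single cytokine genes was not tested.

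**Figure D5:**
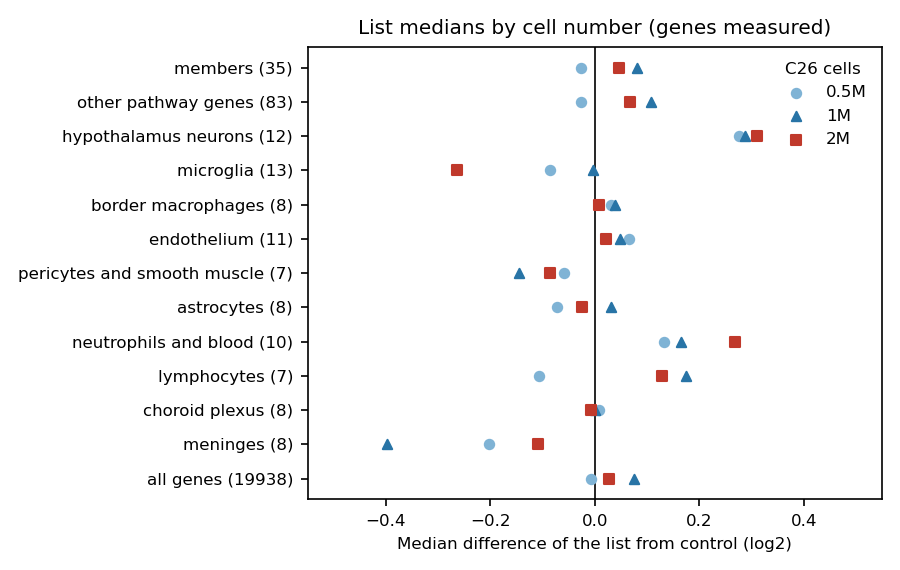
Median difference of each gene list from the control array (x axis, log2) at 0.5M (circle), 1M (triangle) and 2M (square), with the number of genes measured in brackets. The 35 genes of the set, drawn as members, lie between -0.03 and 0.08, close to all genes, while hypothalamus neuron markers lie at 0.28 to 0.31 and meningeal markers at -0.40 to -0.11.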

How the data were processed

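Per the submitters' processing notes, the authors' deposited log2 values were made with RMA, a method that removes background, aligns arrays by quantiles and summarises probe sets. For that step, version, software and array set were not given in the sources used here. Among 35556 probe sets, with 0 missing values, 21789 had 1 symbol in the platform annotation, giving 19938 genes, and a gene with several probe sets was represented by the one with the highest mean. Differences from the control array were counted at 0.5 log2. limma 3.58.1 in R 4.3.3 (lmFit, eBayes, two-sided, Benjamini-Hochberg over all genes tested, threshold 0.05) compared the 3 tumour-bearing arrays with the control array. It also fitted a slope on the number of injected cells. Both were fitted over 11963 genes at or above the 40th percentile of mean level and again over all genes. The fit was tested on simulated data with differences larger than any in the set. That does not show whether sizes like those here would be detected. RNA integrity numbers were above 8 and 100 ng of RNA went on each array, per the labels. The number of arrays limits the precision. Members and lists were chosen with earlier results of these data known. All listed genes were described; of the 95 further pathway genes the named ones are Nfkbia, Il6ra and the 3 highest and 3 lowest by mean difference (Nfkb1 and Il1r1, also in the rule, were not analysed here). The remaining values and plots came from pandas 2.3.3, numpy 2.4.6 and matplotlib 3.10.9 under Python 3.11.15. Promoter sequences come from RefSeq, assembly GRCm38.p6.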

Additional observations from a re-analysis of the deposited data

Results flagged for a closer look

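Il1a and Cxcl10 went past 0.5 log2 from control at 1 cell number and lay on the other side of control at another. Il1a stood at -0.79 log2 in the 2M array and at 0.07 in the 1M pool. Cxcl10 stood at -0.53 log2 in the 0.5M pool and at 0.01 in the 1M pool. The side at 1M depended on the scaling. Cyclic loess gave -0.03 log2 in Il1a and -0.11 in Cxcl10 there, and median centring gave 0.05 and -0.01. With 1 array per cell number, neither difference between cell numbers was tested.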

How the results depend on the processing

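No paired analysis was possible because each group is 1 array. In limma, 0 members passed after adjustment under any alternative run, in the tumour comparison or the trend. The count of members at least 0.5 log2 from control at any cell number, 2 (5.71%, beside 7.15% of all genes), became 13 at 0.3 log2 (37.1%, beside 30.7%), 0 at 1 log2 (beside 0.251%) and 0 among members past the filter. The medians of the set moved by less than their spread between arrays under probe set averaging, median centring, cyclic loess and the mean over members, although centring brought that of 0.5M to 0.00 and cyclic loess that of 2M to 0.00. Leaving out 1 tumour-bearing array, chosen after seeing the data, gave 13 to 17 members higher (17 without 0.5M, 48.6%, beside 47.3% of all genes) and 5 to 12 lower (12 without 1M, 34.3%, beside 33.6%) in both remaining arrays. Fewer arrays raise such counts for all genes. Cyclic loess, also added then, gave 8 lower against 5, beside 26.5% of all genes. The count at an unadjusted p under 0.05 in the tumour comparison, 1, was 0 with cyclic loess, 3 with no filter, 0 with the 60th percentile filter and 0 to 2 without 1 array (2 without 0.5M, where Cxcl12 joined Tnfrsf1b, and 0 without 2M). In the trend it was 3 with no filter and 0 with the 60th percentile filter. Of 120 single-gene estimates in the tumour comparison 9 had the other sign, and of 120 in the trend 14 did, none of a gene that passed. Over all genes, the tumour comparison passed 6 genes, against 1 with no filter, 2 with the 60th percentile filter and 3 without 1M, and the trend passed 0, against 38 without 0.5M and 58 without 1M. The lone control array cannot be left out, so any deviation of that pool enters every difference.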
